A study of Arabidopsis thaliana with 11 samples.

Results

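The UGT genes and the GSTU genes of Arabidopsis thaliana were followed across 3 kinds of sample: cut stigmas, ovaries and seedlings harvested whole. Membership went by name: a probe set belonged if its single annotated gene symbol began with UGT or GSTU and a number. This gave 58 probe sets for 58 distinct genes, of 22746 probe sets on the array and 13513 with 1 annotated gene. UGT genes made up 47 of them, in 11 numbered subgroups, and GSTU genes 11. A further 3 probe sets carried several symbols including a UGT or GSTU name and were not used. The RefSeq gene table (assembly TAIR10.1) lists 58 genes with a UGT symbol and 27 with a GSTU symbol. Those that no member represents were not analysed here.

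UDP-glycosyltransferases, the UGT genes, move a sugar from a nucleotide donor to a small acceptor such as a flavonoid, a hormone or a phenolic acid. Tau glutathione transferases, the GSTU genes, join glutathione to electrophilic compounds, herbicides and other foreign molecules among them. In plants both kinds of conjugate are commonly moved into the vacuole, and many of these genes lie in tandem arrays left by local duplication.

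There were 3 stigma arrays, 4 ovary arrays and 4 seedling arrays of the accession Landsberg erecta, with no transgene, mutation or treatment named other than the erecta background that all groups share. Stigmas and ovaries came from the same kind of flower: buds were emasculated at stage 8, pistils were taken 1 day later, and scissors parted the stigma from the ovary. Seedlings were grown for 10 days on Murashige and Skoog plates and harvested whole, so they hold shoots and roots. The labels do not say whether the arrays of 1 tissue came from separate plants, so each p-value reflects sample-to-sample spread alone, and that spread may be technical. In bulk tissue, fewer cells of a type and less RNA per cell cannot be told apart.

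Signals are the deposited linear array values, in arbitrary units, with the 11 array medians between 206.6 and 255.8. Differences are of log2(signal + 17.2), with their standard error (SE) from limma, and understate the change of dim genes. A difference was called when its adjusted p was under 0.05 over all tested probe sets and it was at least 2-fold. Where a tissue averaged under 17.2, or had 2 or more arrays under it, the difference is a lower bound and is given as "at least". Signals of different probe sets are not compared with each other. Of 5 stigma markers 3 were matched by symbol, YUC4, NGA1 and NGA3, all called higher in stigma than in both other tissues. Of 7 ovule and ovary markers only 1, INO, had a probe set of its own, and it was called higher in ovary. In seedling PRK, LHCB4.2, SBPASE, PYK10 and EXPA7 were called higher. PSBW was called lower in ovary than in seedling (-1.10) and had no call for stigma against seedling (-0.59). All 5 pollen markers were on the array. TUA1 was tested and had no call, and AT59, ANX1, ANX2 and ACT12 missed a signal of 144.2 on 3 arrays and were not tested, with summed signals of 130.4 to 341.6 on stigma arrays, 40.9 to 108.9 on ovary arrays and 32.3 to 55.2 on seedling arrays. AT59 averaged 111 ± 24.7 in stigma (SD, n = 3), 36.5 ± 20.9 in ovary (SD, n = 4) and 6.88 ± 1.78 in seedling (SD, n = 4), and the part of pollen in the stigma values was not tested. Stigma and ovary arrays were scanned in 2 shared periods, A and B, while the seedlings were scanned in periods of their own, so scan period and seedling tissue cannot be told apart. Chip lots 1 and 2 held all 3 tissues, with seedling 1 as the only seedling array of lot 1 and seedling 2 that of lot 2. Seedlings 3 and 4 were in lot 3, so fits with lot as a block compare the floral tissues with seedlings 1 and 2. Stigma 1 was the only stigma array of lot 1 and of period A. All floral arrays of period A were in lot 1 and all of period B in lot 2, so both blocks split the floral arrays alike. Fits within a lot or period took their spread from groups with more than 1 array, so their calls are weak. The log2 ratio of 3' to 5' control signal, a measure of RNA quality, lay between 1.77 and 3.2 in stigma, 1.2 and 2.07 in ovary, and 0.85 and 1.48 in seedling.

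Most of the family was brightest in seedlings. Counting all 58 genes, dim ones included, the highest mean signal fell in stigma for 10, in ovary for 8 and in seedling for 40 (69.0%, against 33.9% of all probe sets). Among the 11 GSTU genes, 10 were brightest in seedling and GSTU18 in stigma. To be tested, a gene had to pass a signal of 144.2 on at least 3 arrays. A gene confined to stigma had to pass on all 3 stigma arrays, while one confined to ovary or seedling could miss on 1 of 4. That level was passed by 33 members, 24 UGT and 9 GSTU, and missed by 25, where 68.2% of all probe sets and 62.9% of those with 1 gene passed. For 12 of the 33 (36.4%), only seedling arrays passed 144.2, against 3.5% of all tested probe sets. For UGT85A3 only stigma arrays passed it, as for 0.702% of all tested probe sets. Such genes had to differ between tissues, so counts over the 33 tested genes are a description. The 16 members with an array above 144.2 in every tissue were counted separately, a subset chosen after seeing the data.

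**Figure D1:**
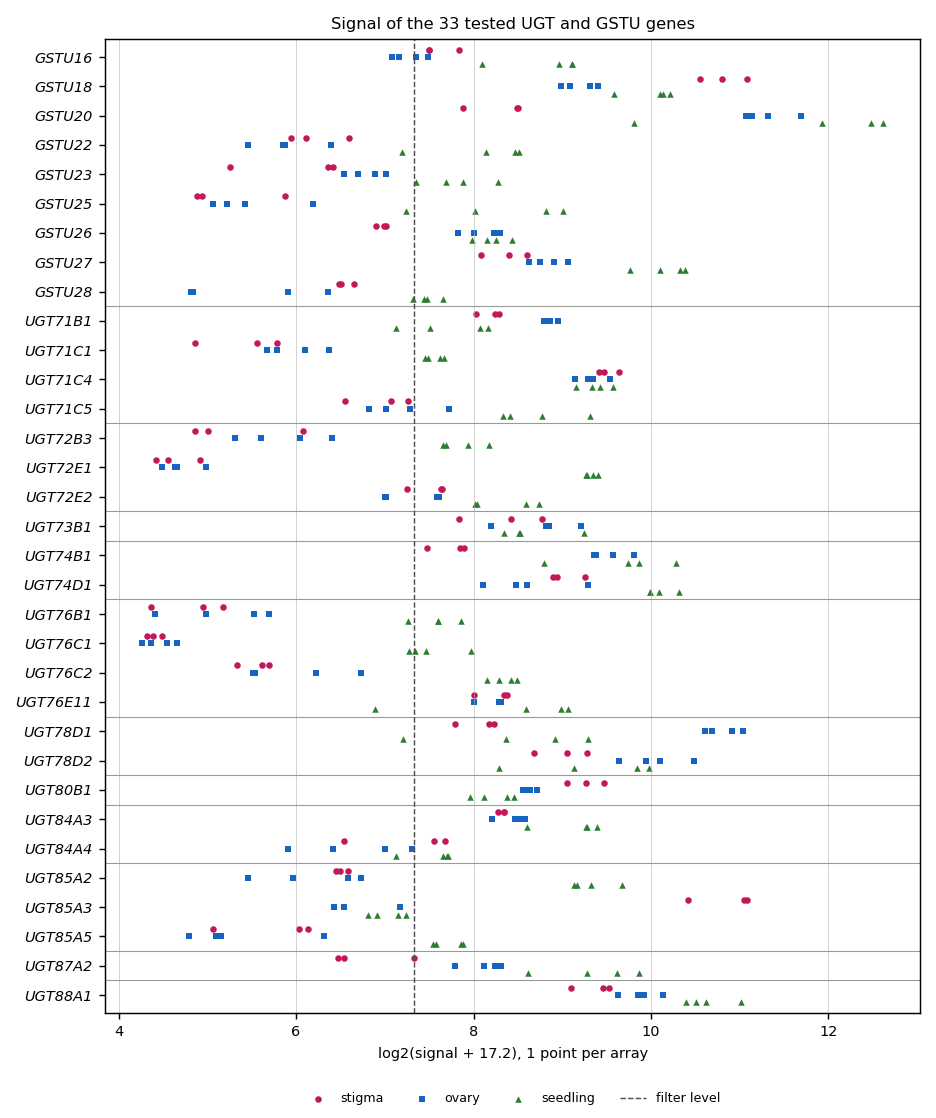
Log2(signal + 17.2) of the 33 tested genes on every array, grouped by subgroup, with stigma as circles, ovary as squares and seedling as triangles; the dashed line marks the filter level of 144.2. Seedling points lie to the right of both other tissues for genes such as UGT72E1 and UGT85A2, stigma points for UGT85A3 and ovary points for UGT78D1.

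Stigma against ovary gave 9 calls among the 33 tested genes, 3 higher and 6 lower in stigma, where 15.8% of all tested probe sets were called. Higher in stigma were UGT85A3, GSTU18 and GSTU28, and lower were GSTU20, UGT78D1, UGT74B1, UGT87A2, GSTU26 and UGT78D2. The background was 6.27% higher and 9.51% lower. Of the 16 genes above 144.2 in every tissue, 5 were called, 1 higher and 4 lower, against 11.7% of probe sets with that property, 5.16% higher and 6.51% lower. Stigma and ovary arrays did not overlap for 15 of the 33, against 45.2% of all tested probe sets. The median difference was -0.24 over the tested members and -0.07 over all tested probe sets. With scan period as a block 8 members were called, against 16.3% of all tested probe sets, and within period B 7, against 16.9%.

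Stigma against seedling gave 22 calls of 33, 2 higher and 20 lower in stigma, against a background of 26.1% of all tested probe sets. That background divided into 11% higher and 15.1% lower. The 2 higher in stigma were UGT85A3 and UGT80B1. Of the 16 genes above 144.2 in every tissue, 7 were called, 1 higher and 6 lower, against 20.2% of probe sets with that property, 9.22% higher and 11% lower. Arrays of the 2 tissues did not overlap for 26 of the 33, against 51.4%. The median difference was -1.27 over the tested members and 0.04 over all tested probe sets. With chip lot as a block 22 members were called, against 26.8% of all tested probe sets.

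Ovary against seedling gave 20 calls of 33, 2 higher and 18 lower in ovary, against 22.8% of all tested probe sets, 11.1% higher and 11.7% lower. UGT78D1 and UGT71B1 were the 2 higher in ovary. Of the 16 genes above 144.2 in every tissue, 6 were called, 2 higher and 4 lower, against 16.9% of such probe sets, 8.51% higher and 8.4% lower. Arrays did not overlap for 24 of the 33, against 47.6%. The median difference was -1.04 over the tested members and 0.12 over all tested probe sets. The last 2 comparisons share the seedling arrays, so their lists are given side by side and not set against each other. With chip lot as a block 21 members were called, against 22.0% of all tested probe sets.

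**Figure D2:**
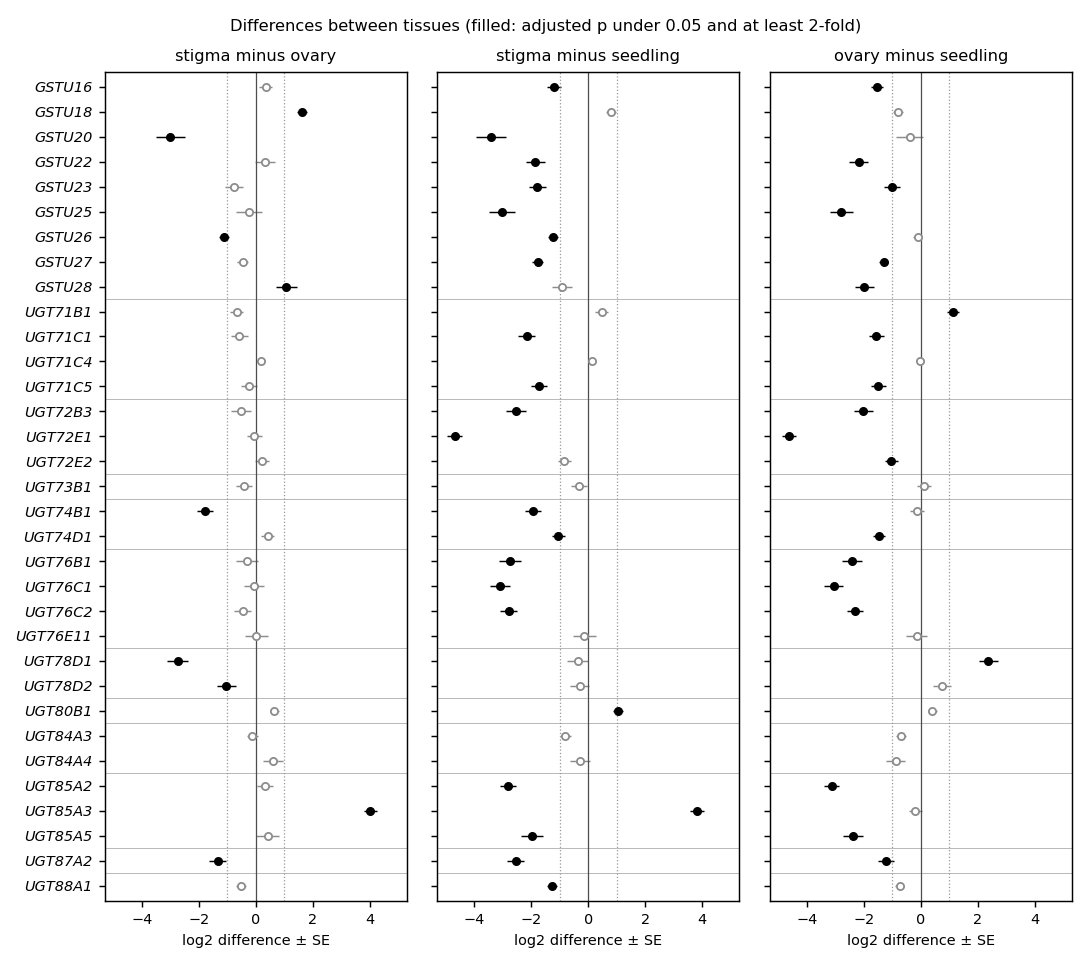
Log2 differences with their SE for the 33 tested genes in the 3 comparisons, stigma minus ovary, stigma minus seedling and ovary minus seedling, with filled points for called differences and dotted lines at 2-fold. UGT85A3 stands at 4.02 and 3.82 in the panels with stigma, UGT78D1 at -2.75 and 2.37 in those with ovary, and UGT72E1 at -4.69 and -4.64 in those with seedling.

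Taking the comparisons together, 16 of the 33 were called higher in seedling than in both other tissues, against 8.95% of all tested probe sets. They were GSTU16, GSTU22, GSTU23, GSTU25, GSTU27, UGT71C1, UGT71C5, UGT72B3, UGT72E1, UGT74D1, UGT76B1, UGT76C1, UGT76C2, UGT85A2, UGT85A5 and UGT87A2. All of these except GSTU16, GSTU27, UGT71C5, UGT74D1 and UGT87A2 passed the filter level on seedling arrays alone, and so had to differ between tissues. Only GSTU16, GSTU27 and UGT74D1 of the 16 had an array above that level in every tissue. The counts over the 33 given here beside a background are therefore a description. Only UGT85A3 was called higher in stigma than in both others (background 4.38%), and only UGT78D1 in ovary (3.86%). Called lower in stigma than in both others were GSTU20, GSTU26, UGT74B1 and UGT87A2 (background 3.9%), and GSTU28 was lower in ovary than in both (1.08%). Called lower in seedling than in both others was no member, where the background was 5.04%. UGT71C4, UGT73B1, UGT76E11, UGT84A3 and UGT84A4 had no call, as did 62.5% of all tested probe sets; the other 28 had at least 1, against 37.5%.

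Among the flavonoid enzymes, UGT78D1 was the tested gene called higher in ovary than in both other tissues. UGT78D1 (AT1G30530) puts rhamnose on the 3-position of flavonols. It read 271.7, 283.9 and 204.0 on the stigma arrays, 1913.1, 2088.6, 1634.8 and 1540.4 on the ovary arrays, and 606.6, 465.7, 313.6 and 130.3 on the seedling arrays. Every ovary array stood above every array of both other tissues, while stigma and seedling arrays overlapped. The difference was -2.75 (SE 0.36, adjusted p = 7.84e-05) for stigma against ovary and 2.37 (SE 0.34, adjusted p = 7.01e-05) for ovary against seedling. Within periods A and B the first was -2.80 and -2.64. The second was 1.71 with chip lot as a block, 1.69 within lot 1 and 1.73 within lot 2, over 1.5 times smaller as a fold.

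UGT78D2 (AT5G17050), which glucosylates the 3-position of flavonols and anthocyanidins, was also lower in stigma than in ovary. It read 604.4, 512.3 and 393.7 in stigma, 1084.8, 1413.2, 968.0 and 779.0 in ovary, and 990.3, 904.0, 546.2 and 294.1 in seedling. Every ovary array stood above every stigma array, and the seedling arrays overlapped both. The call of -1.04 (SE 0.34, adjusted p = 0.0314) stood close to both limits. It was lost without any 1 of stigma 2, stigma 3, ovary 1, ovary 2 or ovary 3, where the difference lay between -0.88 and -1.07, and within period B, where it was -0.93. Nor was it called with scan period (-0.96) or chip lot (-0.97) as a block, which split the floral arrays alike. The call was also lost with equal array medians (-0.89), with a pseudocount of 64 (-0.98) or with the RNA quality covariate (-1.11, adjusted p = 0.0947). UGT78D3 (AT5G17030), a flavonol arabinosyltransferase with 1 gene between it and UGT78D2, stayed dim, with ovary arrays from 18.9 to 41.4 and no other array above 17.9.

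Among the glucosinolate and auxin enzymes of subgroup 74, UGT74B1 (AT1G24100) was low in stigma. UGT74B1 attaches glucose to thiohydroximates, a late step in making glucosinolates. Its signals were 213.1, 161.2 and 220.9 in stigma, 650.2, 639.2, 882.0 and 741.9 in ovary, and 1225.0, 916.8, 835.8 and 425.8 in seedling. Every stigma array lay below every other array, and ovary and seedling arrays overlapped. Stigma differed from ovary by -1.79 (SE 0.28, adjusted p = 0.000257) and from seedling by -1.93 (SE 0.28, adjusted p = 6.67e-05). Within scan periods A and B the first difference was -1.52 and -2.0, and within chip lots 1 and 2 the second was -2.43 and -2.18.

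UGT74D1 (AT2G31750), an auxin glucosyltransferase, read 458.7, 473.4 and 596.5 in stigma, 371.8, 607.1, 338.8 and 259.0 in ovary, and 1072.9, 996.9, 1261.2 and 998.0 in seedling. Every seedling array exceeded every array of the other tissues. Ovary differed from seedling by -1.48 (SE 0.21, adjusted p = 7.2e-05). Stigma differed by -1.06 (SE 0.23, adjusted p = 0.00166), a call lost without stigma 1 (-1.0) or seedling 3 (-0.99), with chip lot as a block (-0.96) and within lot 2 (-0.89). UGT74F1, which acts on salicylate, passed 47.8 on no array.

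Of the monolignol enzymes, UGT72E1 (AT3G50740) had the largest seedling difference of the tested members. UGT72E1 and its relatives glucosylate lignin precursors, the hydroxycinnamyl alcohols and aldehydes. It read 4.3, 12.9 and 6.4 in stigma, 7.6, 8.1, 14.5 and 5.2 in ovary, and 635.6, 661.2, 605.0 and 601.7 in seedling. The 4 seedling arrays were close together, and all 7 floral arrays were under 17.2. The differences were therefore bounds, at least 4.69 log2 units lower in stigma (SE 0.26, adjusted p = 1.02e-08) and at least 4.64 lower in ovary (SE 0.24, adjusted p = 6.99e-09) than in seedling. Within lots 1 and 2 the values were -4.92 and -4.67 for stigma, and -4.70 and -4.67 for ovary.

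UGT72E2 (AT5G66690), which also acts on monolignols, read 135.3, 180.8 and 183.6 in stigma, 112.4, 110.9, 177.6 and 175.7 in ovary, and 368.8, 408.9, 245.9 and 242.3 in seedling. All seedling arrays stood above all floral arrays, and stigma and ovary overlapped. Its ovary level was called lower than in seedling by 1.04 log2 units (SE 0.23, adjusted p = 0.00171). Without ovary 1, ovary 2, seedling 1 or seedling 2 the size fell under 2-fold, between -0.91 and -0.96, as it did with a pseudocount of 64 (-0.86) and the RNA quality covariate (-0.89). Stigma against seedling, at -0.84 (SE 0.24, adjusted p = 0.0115), missed 2-fold, although it was called with chip lot as a block (-1.22) and within each lot. UGT72E3 (AT5G26310) was dim and uneven. Its ovary signals were 113.0, 150.5, 56.5 and 7.9, its stigma signals 14.0, 10.1 and 7.2, and its seedling signals 27.3, 15.0, 14.8 and 10.2. Ovary 4 lay within the stigma range and below every seedling array, and the other ovary arrays lay above both tissues. In the fit without the filter stigma was at least 1.54 log2 units lower than ovary (SE 0.50, adjusted p = 0.0388), and ovary at least 1.25 higher than seedling (SE 0.46, adjusted p = 0.0465). In the same subgroup, UGT72B3 was at least 2.54 log2 units lower in stigma (SE 0.36) and 2.02 lower in ovary (SE 0.33) than in seedling, with a mean of 218 ± 41.1 in seedling (SD, n = 4). The ovary call was lost within chip lot 2 (-1.65).

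Subgroup 84 makes glucose esters of hydroxycinnamic acids such as sinapate, and its tested genes UGT84A3 and UGT84A4 had no call. UGT84A3 (AT4G15490) read 307.4, 293.3 and 308.1 in stigma, 347.8, 335.5, 279.3 and 364.5 in ovary, and 599.8, 603.7, 655.1 and 372.4 in seedling. Seedling arrays stood above all others, seedling 4 only narrowly. Ovary differed from seedling by -0.70 (SE 0.17, adjusted p = 0.00458) and stigma by -0.81 (SE 0.19, adjusted p = 0.00277), both under 2-fold, with stigma against seedling called, at -1.0, without stigma 1, ovary 1 and seedling 4 together. UGT84A4 (AT4G15500) read 75.8, 187.4 and 170.8 in stigma, 68.3, 43.1, 140.8 and 111.0 in ovary, and 192.3, 184.5, 191.7 and 123.0 in seedling. The 3 tissues overlapped. Stigma against ovary was 0.60 (SE 0.35, adjusted p = 0.215), and was called with the RNA quality covariate, at 1.33 (SE 0.32, adjusted p = 0.00955). Ovary against seedling was -0.89 (SE 0.33, adjusted p = 0.0358), under 2-fold. That difference was called with chip lot as a block (-1.02), within lot 1 (-1.54), with equal array medians (-1.0) and without seedling 4 (-1.03), and not within lot 2 (-0.50). The third gene of this run, UGT84A1 (AT4G15480), was under the filter and had a different tissue order: 16.2, 9.9 and 9.4 in stigma, 154.2, 202.3, 85.9 and 53.5 in ovary, and 18, 8.9, 5.6 and 4.5 in seedling. All ovary arrays lay above all others. In the fit without the filter stigma was at least 2.16 log2 units lower than ovary (SE 0.35, adjusted p = 0.000573), and ovary at least 2.31 higher than seedling (SE 0.33). UGT84B1, which glucosylates auxin, and UGT84B2 stayed at or under 54.5 on every array.

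In subgroup 76, UGT76C1, UGT76C2 and UGT76B1 were called lower in both floral tissues than in seedling. UGT76C1 and UGT76C2, which add glucose to the ring nitrogens of cytokinins, lie next to each other on chromosome 5. UGT76C1 (AT5G05870) read 2.7, 3.7 and 5.2 in stigma, 2.0, 3.4, 6.1 and 8.1 in ovary, and 144.8, 158.8, 137.9 and 234.5 in seedling. All floral arrays were under 17.2, and both differences were bounds: at least 3.12 log2 units lower in stigma (SE 0.35, adjusted p = 8.21e-06) and at least 3.06 in ovary (SE 0.33, adjusted p = 5.56e-06). UGT76C2 (AT5G05860) averaged 29.7 ± 5.97 in stigma (SD, n = 3), 51.2 ± 28.7 in ovary (SD, n = 4) and 307 ± 32.8 in seedling (SD, n = 4). Its differences were -2.79 (SE 0.30) for stigma against seedling and -2.33 (SE 0.28) for ovary against seedling. Stigma against ovary was -1.15 within scan period A, where stigma 1 was the only stigma array, and 0.12 within period B. The difference between the periods had an unadjusted p = 0.0187 in limma, and 0.512 adjusted.

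UGT76B1 (AT3G11340), which glucosylates isoleucic acid and salicylate, read 3.4, 13.8 and 18.9 in stigma, 14.4, 34.6, 4.0 and 28.9 in ovary, and 215.4, 136.8, 176.6 and 177.5 in seedling. No seedling array overlapped a floral array, and stigma and ovary overlapped. Stigma was at least 2.75 log2 units lower (SE 0.38, adjusted p = 4.8e-05) and ovary at least 2.43 lower (SE 0.35, adjusted p = 7.98e-05) than seedling. Within lot 1 the stigma difference was -3.50. UGT76E11 (AT3G46670) had no call. Its signals were 240.4, 306.5 and 315.6 in stigma, 299.8, 300.6, 239.9 and 296.4 in ovary, and 518.7, 488.3, 368.7 and 101.1 in seedling. Seedling 4 was the lowest of all 11 arrays while the other seedling arrays were the highest. Without it, the differences from seedling were -0.64 for stigma and -0.65 for ovary, both under 2-fold.

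Abscisic acid enzymes belong to subgroup 71. UGT71C5 (AT1G07240), one of them, averaged 110 ± 30.5 in stigma (SD, n = 3), 135 ± 42.9 in ovary (SD, n = 4) and 417 ± 144 in seedling (SD, n = 4). It was lower by 1.75 log2 units in stigma (SE 0.28, adjusted p = 0.000191) and by 1.5 in ovary (SE 0.26, adjusted p = 0.000365), and both calls were lost within chip lot 1 (-1.27 and -0.97). UGT71B6, another of them, was at or under 18.2 on every array. UGT71C4 (AT1G07250), the next gene to UGT71C5 on chromosome 1, was level across the tissues: 690.5, 665.6 and 781.3 in stigma, 727.1, 632.1, 610.6 and 549.1 in ovary, and 554.3, 630.1, 668.5 and 746.9 in seedling. The 3 ranges overlapped, and its differences were 0.18 (SE 0.15, adjusted p = 0.383), 0.13 (SE 0.15, adjusted p = 0.479) and -0.04 (SE 0.14, adjusted p = 0.81) for stigma against ovary, stigma against seedling and ovary against seedling.

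Also in subgroup 71, UGT71B1 (AT3G21750) was one of the 2 members called higher in ovary than in seedling. It read 243.3, 294.1 and 284.9 in stigma, 449.2, 427.0, 477.4 and 434.0 in ovary, and 270.5, 252.3, 165.0 and 122.5 in seedling. Ovary arrays stood above all others and stigma arrays overlapped those of seedlings. The difference of 1.14 (SE 0.21, adjusted p = 0.00053) fell under 2-fold without seedling 4 (0.94), also when stigma 1 and ovary 1 were left out with it (0.94), with a pseudocount of 64 (0.98), with chip lot as a block (0.74), and within lots 1 and 2 (0.66 and 0.81). UGT71C1 (AT2G29750) was lower by 2.16 log2 units in stigma (SE 0.30) and by 1.57 in ovary (SE 0.27) than in seedling, with a mean of 171 ± 13.2 in seedling (SD, n = 4).

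The tested gene called higher in stigma than in both other tissues was UGT85A3 (AT1G22380). Its signals were 1355.2, 2155.3 and 2095.1 in stigma, 127.1, 68.8, 127.5 and 76.0 in ovary, and 95.4, 133.8, 124.8 and 103.2 in seedling. The stigma arrays stood far above the other 8, whose 2 tissues overlapped. Stigma was higher than ovary by 4.02 log2 units (SE 0.24, adjusted p = 1.94e-07), 16.2-fold, and higher than seedling by 3.82 (SE 0.24, adjusted p = 3.39e-08), 14.1-fold. Within scan periods A and B the first was 3.62 and 4.21, and within lots 1 and 2 the second was 3.61 and 3.83. Ovary 1 carried more signal of the stigma marker AT3G12000 than the other ovary arrays, 1832.3 against 124.0 to 316.4. It also carried more of NGA3, 77.8 against 19.0 to 44.5, and of the glucosinolate gene CYP79A2, 66.2 against 4.5 to 8.6. Its YUC4 and NGA1 signals lay within the range of the other ovary arrays, and so did UGT85A3, at 127.1 within 68.8 to 127.5. The part of stigma tissue in the ovary 1 values was not tested.

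UGT85A3 is the last member in a run of 4 neighbouring members on chromosome 1, in the order UGT85A7, UGT85A2, UGT85A5, UGT85A3. No other protein-coding gene lies between them in the RefSeq order. UGT85A2 (AT1G22360) read 70.3, 78.5 and 73.1 in stigma, 78.8, 45.5, 26.6 and 88.9 in ovary, and 545.7, 623.7, 557.8 and 801.1 in seedling, with seedling arrays well above the rest. It was lower by 2.82 log2 units in stigma (SE 0.28, adjusted p = 2.6e-06) and by 3.14 in ovary (SE 0.26, adjusted p = 5.66e-07). UGT85A5 (AT1G22370) was lower by 1.97 in stigma (SE 0.39, adjusted p = 0.000909) and by at least 2.38 in ovary (SE 0.36, adjusted p = 0.000116), with a mean of 194 ± 26.6 in seedling (SD, n = 4). The stigma call was lost within chip lot 1 (-1.83). UGT85A7 had 1 stigma array at 118.1 and the others at 13.7 and 16.9, so no level could be given to the tissue.

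**Figure D3:**
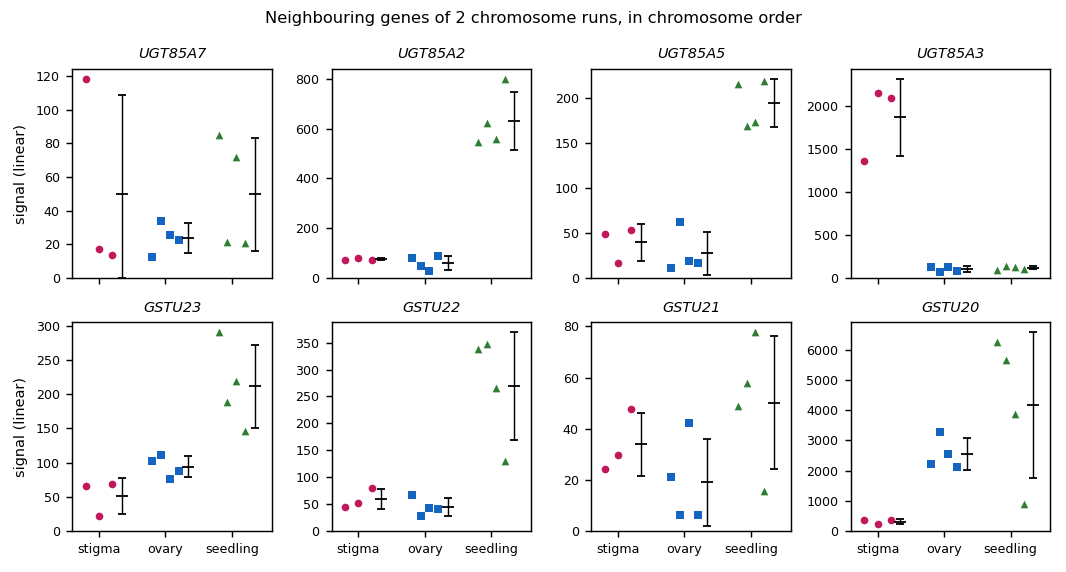
Linear signal per array, with the mean and SD beside the points and a separate axis for each gene, of the UGT85A run (top) and the GSTU20 run (bottom), stigma at the left, ovary in the middle and seedling at the right of each panel. UGT85A3 is high in stigma, UGT85A2 and UGT85A5 in seedling, and GSTU20 is low in stigma, while GSTU22 and GSTU23 exceed their floral signals only in seedling.

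GSTU20 (AT1G78370) was low in stigma and uneven among the seedlings. It is known as a partner of the jasmonate-conjugating enzyme FIN219. It read 345.6, 218.1 and 342.9 in stigma, 2229.6, 3289.9, 2544.6 and 2127.8 in ovary, and 6276.8, 5684.7, 3875.4 and 878.6 in seedling. Every stigma array was below every other array, but seedling 4 lay below all ovary arrays and the other seedlings above them. Stigma was lower than ovary by 3.01 log2 units (SE 0.51, adjusted p = 0.0005), 8.07-fold, with -2.91 and -3.01 within periods A and B. Against seedling stigma was lower by 3.42 (SE 0.51, adjusted p = 9.09e-05), with a difference of -4.05 without seedling 4, and of -4.12 and -4.29 within lots 1 and 2. Ovary against seedling was not called at -0.40 (SE 0.47, adjusted p = 0.495), but was called without seedling 4, at -1.04 (SE 0.20, adjusted p = 0.000765), and with chip lot as a block, at -1.24.

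The run of members that ends in GSTU20 starts with GSTU23, GSTU22 and GSTU21, all adjacent. GSTU22 (AT1G78340) averaged 58.6 ± 18.4 in stigma (SD, n = 3), 43.9 ± 16.8 in ovary (SD, n = 4) and 270 ± 101 in seedling (SD, n = 4). It was lower by 1.86 log2 units in stigma (SE 0.34) and by 2.19 in ovary (SE 0.32) than in seedling. In the fit with the RNA quality covariate the stigma difference was -1.18 and not called. GSTU23 (AT1G78320) was lower by 1.79 in stigma (SE 0.31) and by 1.01 in ovary (SE 0.29), and the ovary call was lost without ovary 3, ovary 4, seedling 1 or seedling 3, between -0.86 and -0.99, within lots 1 and 2 (-1.32 and -1.07) and with a pseudocount of 64 (-0.78). GSTU21 passed 77.8 on no array.

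GSTU18 (AT1G10360) was the only GSTU gene brightest in stigma. It read 1761.6, 1482.0 and 2150.8 in stigma, 527.0, 659.8, 616.6 and 490.1 in ovary, and 1082.7, 1106.2, 1171.5 and 750.3 in seedling. No 2 tissues overlapped: stigma was highest, seedling next and ovary lowest. Stigma was higher than ovary by 1.61 log2 units (SE 0.18, adjusted p = 2.44e-05), with 1.55 and 1.67 within periods A and B. Stigma exceeded seedling by 0.80 (SE 0.18, adjusted p = 0.00277) and ovary stood at -0.81 against seedling (SE 0.17, adjusted p = 0.00145), both under 2-fold.

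GSTU25 and GSTU26 are adjacent genes with different tissue patterns. GSTU25 (AT1G17180), which can act on the explosive TNT, read 12.2, 41.3 and 13.6 in stigma, 20, 25.7, 16.3 and 55.7 in ovary, and 497.4, 434.5, 242.8 and 133.9 in seedling. Seedling arrays stood above all floral arrays. It was at least 3.04 log2 units lower in stigma (SE 0.45, adjusted p = 8.09e-05) and 2.80 lower in ovary (SE 0.41, adjusted p = 9.18e-05) than in seedling. Within lot 1 those values were -4.13 and -3.69, and with the RNA quality covariate stigma against seedling was -2.35. GSTU26 (AT1G17190), which responds to chloroacetanilide herbicides, read 101.9, 112.0 and 110.0 in stigma, 282.6, 240.2, 296.5 and 210.4 in ovary, and 287.5, 268.1, 328.1 and 235.6 in seedling. Stigma was below both other tissues, which overlapped. The calls of -1.12 against ovary (SE 0.18, adjusted p = 0.00029) and -1.24 against seedling (SE 0.18, adjusted p = 6.24e-05) did not reach 2-fold with a pseudocount of 64, at -0.89 and -0.99, and the first was -0.97 when array medians were made equal.

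Of the other GSTU genes, GSTU16 and GSTU27 were called higher in seedling than in both floral tissues. For GSTU16 the stigma call of -1.21 was lost within chip lot 1 (-1.13). GSTU27 (AT3G43800) averaged 316 ± 59.1 in stigma (SD, n = 3), 443 ± 61.6 in ovary (SD, n = 4) and 1129 ± 210 in seedling (SD, n = 4). GSTU28 (AT1G53680) read 83.8, 72.3 and 74.0 in stigma, 11.3, 65.2, 11 and 42.8 in ovary, and 157.3, 141.8, 184.5 and 160.9 in seedling. The ovary arrays were spread widely but stayed below every stigma array, and the seedling arrays were highest. Stigma was at least 1.07 higher than ovary (SE 0.36, adjusted p = 0.0358), a call lost without any 1 of the 3 stigma arrays, without ovary 1 or ovary 3 (0.85 each), and within both scan periods. It was also lost with the RNA quality covariate (0.72, adjusted p = 0.257), with a pseudocount of 64 (0.58), in a fit of the 2 tissues alone, where the size stayed at 1.07 but the adjusted p passed 0.05, and after leaving out 3 arrays at once, stigma 1, ovary 1 and seedling 4 (0.80). Ovary was at least 1.99 lower than seedling (SE 0.34, adjusted p = 0.000278), not called within lot 1 (-1.85) or lot 2 (-1.95).

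Seedling 4 was the lowest seedling array for 8 of the 9 tested GSTU genes and for 12 of the 24 tested UGT genes, against 42.5% of all tested probe sets. Without it, ovary against seedling was -1.79 for GSTU16, -2.48 for GSTU22, -1.16 for GSTU23, -3.14 for GSTU25, -1.43 for GSTU27 and -1.99 for GSTU28, all called. It was -0.95 for GSTU18 and -0.19 for GSTU26, under 2-fold. Stigma against seedling was -1.45 for GSTU16, -2.16 for GSTU22, -1.94 for GSTU23, -3.39 for GSTU25, -1.31 for GSTU26 and -1.91 for GSTU27. Of the UGT genes above, UGT78D1 stood at 1.96 for ovary against seedling and UGT74B1 at -2.22 for stigma against seedling.

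The remaining subgroups had 1 tested gene each. UGT87A2 (AT2G30140), which acts on flowering time, read 75.8, 71.6 and 143.9 in stigma, 286.0, 204.3, 261.6 and 300.4 in ovary, and 918.7, 767.7, 603.7 and 374.7 in seedling. The 3 tissues did not overlap, with stigma lowest and seedling highest. It was lower in stigma than in ovary by 1.34 (SE 0.29, adjusted p = 0.00293), lower in stigma than in seedling by 2.56 (SE 0.29, adjusted p = 7.94e-06) and lower in ovary than in seedling by 1.23 (SE 0.27, adjusted p = 0.00184). The first was not called with the RNA quality covariate, at -0.85. The covariate gave -1.91 for stigma against seedling. Within lot 1 that difference was -3.33, and ovary against seedling was -1.85.

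UGT80B1 (AT1G43620), a sterol glucosyltransferase, was 1 of the 2 members called higher in stigma than in seedling. It read 691.6, 600.1 and 513.5 in stigma, 369.1, 403.3, 360.8 and 380.6 in ovary, and 316.6, 259.6, 335.3 and 231.2 in seedling, with no overlap between any 2 tissues. The call of 1.04 (SE 0.16, adjusted p = 0.00015) stood close to 2-fold and fell under it without stigma 1 (0.93) or seedling 4 (0.94), with the RNA quality covariate (0.82), a pseudocount of 64 (0.93), quantile normalization (0.98) or the replicate number as a block (0.99). Nor was it called without seedling 2 (1.0) or in a fit that dropped stigma 1, ovary 1 and seedling 4 (0.84). UGT88A1 (AT3G16520) read 687.7, 529.3 and 718.0 in stigma, 910.4, 774.8, 1108.1 and 949.4 in ovary, and 1444.5, 1325.2, 2044.9 and 1553.1 in seedling. The tissues stood apart in that order, and the call was that of stigma against seedling, -1.27 (SE 0.18, adjusted p = 5.49e-05). UGT73B1 (AT4G34138) had no call. It read 210.5, 418.5 and 326.5 in stigma, 577.8, 433.8, 442.8 and 275.8 in ovary, and 308.0, 351.9, 348.9 and 590.8 in seedling, and the arrays of all tissues overlapped. Within scan period A, where stigma 1 was the only stigma array, stigma against ovary was -1.19, and within period B it was 0.08. The difference between the periods had an unadjusted p = 0.0191 in limma, and 0.515 adjusted.

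The 25 genes under the filter are given with their highest signal on any array. Those that passed 144.2 on 1 or 2 arrays were UGT76E2 (207.8), UGT84A1 (202.3), UGT73C1 (174.4), UGT72E3 (150.5) and UGT71C3 (149.4). Between 100 and 144.2 were UGT73B5 (129.2), UGT85A4 (125.7), UGT85A7 (118.1), UGT71B5 (117), UGT76D1 (115.1) and UGT71C2 (112.2). Under 100 were UGT73B4 (88.9), GSTU15 (79), GSTU21 (77.8), UGT76E1 (74.7), UGT76E12 (64.4), UGT73D1 (58.9), UGT73C7 and UGT84B1 (54.5 each), UGT84B2 (53), UGT71B8 (50.3), UGT74F1 (47.8), UGT78D3 (41.4), UGT73C2 (30.3) and UGT71B6 (18.2). UGT73C1 and UGT73B4 can act on TNT. In 20 of them no array passed 144.2, and in 14 none passed 100. Subgroup 73 had 6 of its 7 genes here. Fitted without the filter, the 25 had 3 calls for stigma against ovary, 4 for stigma against seedling and 7 for ovary against seedling. Of all 22746 probe sets, 12.1%, 20.8% and 18.3% were called in that fit. Over all 58 members it gave 12, 26 and 27 calls in the same order. They divided into 4 higher and 8 lower in stigma than in ovary (background 4.95% and 7.17%), 4 and 22 in stigma against seedling (8.78% and 12.1%), and 5 and 22 in ovary against seedling (8.56% and 9.77%).

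By mean signal 6 of the 25 were brightest in stigma, 4 in ovary and 15 in seedling, the tissue where 33.9% of all probe sets were brightest. UGT76E1 (AT5G59580), which acts on 12-hydroxyjasmonate, read 35.7, 74.7 and 39.4 in stigma, 51.3, 64.4, 10.9 and 12.3 in ovary, and 2.3, 3.3, 2.8 and 2.0 in seedling. All floral arrays were above all seedling arrays. Stigma was at least 1.72 higher (SE 0.37, adjusted p = 0.00235) and ovary at least 1.23 higher (SE 0.34, adjusted p = 0.0118) than seedling. Its neighbour UGT76E2 (AT5G59590) read 166.7, 141.3 and 207.8 in stigma, 65.6, 76.5, 120.4 and 71.8 in ovary, and 80.7, 78.9, 58.0 and 77.0 in seedling. Stigma arrays stood above the rest, and stigma exceeded seedling by 1.05 (SE 0.25, adjusted p = 0.00432). Stigma against ovary, at 0.92 (SE 0.25, adjusted p = 0.0149), missed 2-fold.

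UGT73B5 (AT2G15480) was lowest in ovary. It read 95.2, 91.9 and 98.5 in stigma, 8.8, 2.4, 21.6 and 28.7 in ovary, and 129.2, 83.3, 96.1 and 68.7 in seedling. The ovary arrays were below all others, and the others overlapped. Stigma was at least 1.86 higher than ovary (SE 0.31, adjusted p = 0.000611) and ovary at least 1.83 lower than seedling (SE 0.28, adjusted p = 0.000206). UGT71C3 and UGT73B4 were called lower in both floral tissues than in seedling, and UGT85A4 was called lower in ovary, all at seedling signals of 149.4 or less. UGT73B4 was uneven in seedling, at 88.9, 26.6, 14.9 and 10.2, with 2 arrays under 17.2. Its calls stood close to both limits, at least 1.04 lower in stigma (SE 0.37, adjusted p = 0.0422) and 1.03 in ovary (SE 0.34, adjusted p = 0.0292). UGT76D1, which acts on dihydroxybenzoic acids, was even, at 74.1 to 115.1 in stigma, 74.9 to 97.3 in ovary and 56.8 to 97.3 in seedling.

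**Figure D4:**
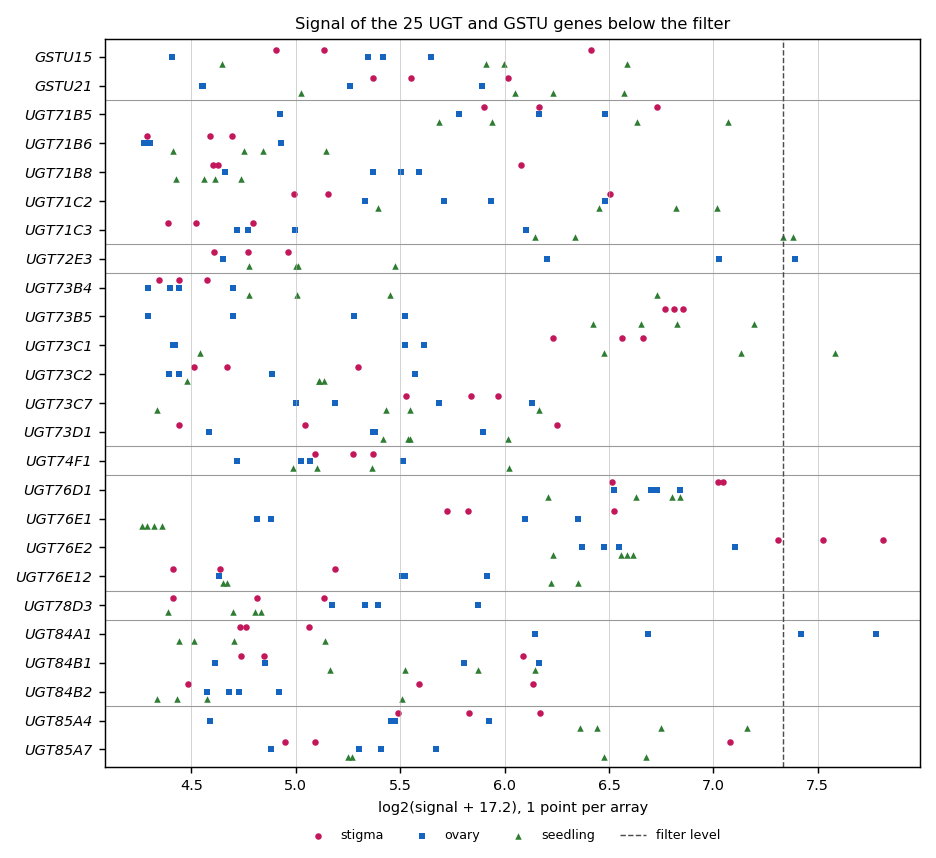
Log2(signal + 17.2) of the 25 genes under the filter on every array, with stigma as circles, ovary as squares and seedling as triangles; the dashed line marks the filter level of 144.2. Ovary points stand apart to the right for UGT84A1, ovary points to the left for UGT73B5 and seedling points to the left for UGT76E1, while most other genes overlap between tissues.

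By position, 37 of the 58 members lay in 15 runs with at most 2 other protein-coding genes between neighbours. Runs were built from members alone, so family genes that no member represents may extend them. By mean signal, dim genes included, 69.0% of all 58 members were brightest in seedling. All members shared the brightest tissue in 8 runs and differed in 7, with some means close together in both kinds of run. Among those that differed, UGT84A1 was brightest in ovary beside UGT84A3 and UGT84A4 in seedling, and UGT85A3 in stigma beside UGT85A2 and UGT85A5 in seedling. Among those that shared it were UGT76E1 with UGT76E2 (stigma), UGT78D3 with UGT78D2 (ovary), and UGT76C2 with UGT76C1 and the GSTU20 run (seedling). Stigma and ovary arrays overlapped for UGT76E1, and ovary and seedling arrays for UGT78D2.

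Few genes of the neighbouring pathways had a probe set annotated with that gene alone. A gene without such a probe set may still be on the array. Of 25 genes of other glutathione transferase classes 2 could be followed, and of 11 glutathione genes 2. Of 15 conjugate transporters of the ABCC class 0 could be, of 33 flavonoid genes 3 and of 28 glucosinolate genes 3. GSTF4 was lower in stigma than in ovary by 1.27 (SE 0.32, adjusted p = 0.00738) and than in seedling by 1.47 (SE 0.32, adjusted p = 0.00184), while GSTL3 had no call. Of the glutathione reductases, which regenerate reduced glutathione, GR1 was higher in stigma than in seedling by 1.71 (SE 0.33, adjusted p = 0.000718). The organelle form GR was lower than in seedling by 1.45 in stigma (SE 0.16) and by 1.53 in ovary (SE 0.15).

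The 3 flavonoid genes that could be followed, like UGT78D1, were brightest in ovary, and the rest of that list was not examined. DFR, dihydroflavonol reductase, read 381.1, 417.7 and 305.5 in stigma, 2277.7, 2032.8, 2635.3 and 2000.9 in ovary, and 598.0, 581.1, 298.7 and 139.7 in seedling. Ovary arrays stood above all others. DFR was lower in stigma than in ovary by 2.55 (SE 0.37, adjusted p = 0.000158), and BAN, the anthocyanidin reductase of seed coat tannins, by at least 2.56 (SE 0.32). Both were called higher in ovary than in seedling, DFR by 2.61 (SE 0.34) and BAN by at least 2.81 (SE 0.30), and so was CHIL, a chalcone isomerase-like protein, by 2.11 (SE 0.73, adjusted p = 0.0271). CHIL read 440.2, 412.0 and 596.5 in stigma, 1465.0, 1579.6, 1290.0 and 1267.8 in ovary, and 686.8, 969.5, 417.3 and 21.0 in seedling. Ovary arrays were above all others, and seedling 4 was far below the other seedlings. Without seedling 4, a refit chosen after seeing the data, CHIL was higher in ovary than in seedling by 1.07 (SE 0.23, adjusted p = 0.00121) and DFR by 2.20. Stigma against ovary for CHIL was not called over all arrays, at -1.52 (SE 0.79, adjusted p = 0.157), but was called without seedling 4, with the same difference and an SE of 0.23 (adjusted p = 0.000112).

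Among the 3 glucosinolate genes the directions were mixed. BCAT4, which starts methionine chain elongation, was lower in stigma than in ovary by 3.69 (SE 0.63, adjusted p = 0.000579) and than in seedling by 4.89 (SE 0.63, adjusted p = 2.73e-05). AOP3, which modifies side chains, was lower by 1.78 (SE 0.49, adjusted p = 0.0121) and 3.15 (SE 0.49, adjusted p = 0.000128). CYP79A2, which makes the phenylalanine-derived aldoxime, was higher in stigma than in ovary by at least 5.62 (SE 0.43, adjusted p = 9.47e-07) and than in seedling by at least 6.16 (SE 0.43, adjusted p = 8.59e-08). Seedling 4 was the lowest seedling array for BCAT4, at 502.7 against 2584.7 to 4391.5, and for AOP3, CHIL and DFR, as it was for GSTU20, UGT74B1, UGT78D1 and UGT78D2. Without it, stigma against seedling was -5.60 for BCAT4 and -3.77 for AOP3. Ovary against seedling for BCAT4 was -1.91 and called, against -1.21 over all arrays, which was not.

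**Figure D5:**
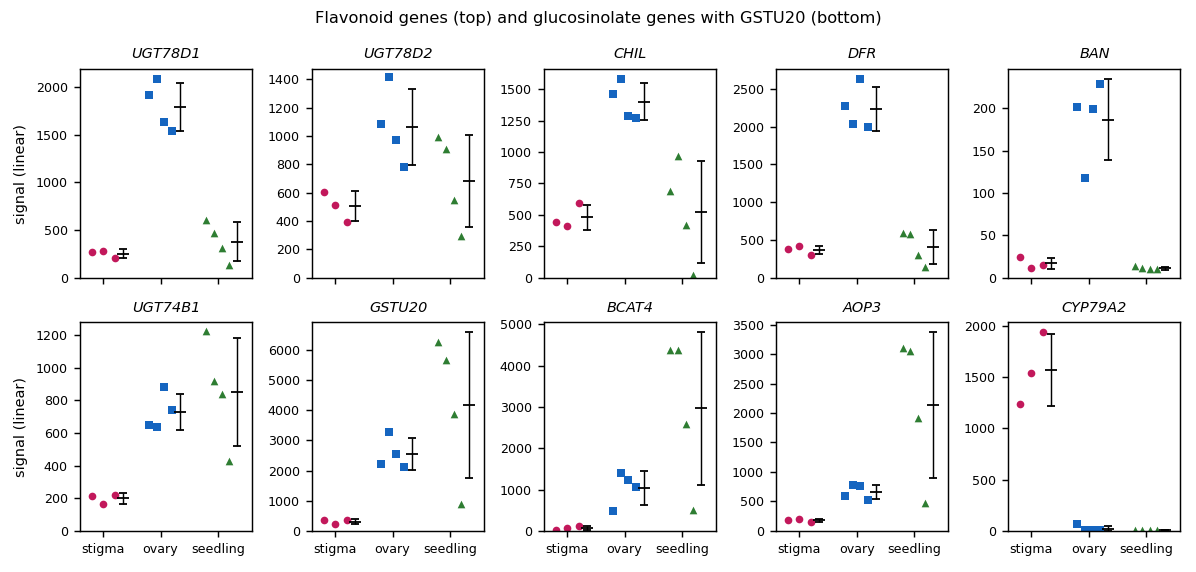
Linear signal per array, with the mean and SD beside the points and a separate axis for each gene, of UGT78D1, UGT78D2 and 3 flavonoid genes (top) and of UGT74B1, GSTU20 and 3 glucosinolate genes (bottom), stigma at the left, ovary in the middle and seedling at the right of each panel. The top genes are highest in ovary, the first 4 bottom genes are lowest in stigma with a low seedling 4 array, and CYP79A2 is high in stigma.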

How the data were processed

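RNA of 11 ATH1 arrays was analysed as deposited: a table of linear intensity, with 22810 probe sets to an array. Its values show that the authors scaled each array, since the 2% trimmed means all lie between 500.03 and 500.04; the sources used here name no software. The other deposited files, run information of each array, gave scan period and chip lot only. Probe sets were named through GEO's platform annotation, and gene order was read from RefSeq (TAIR10.1, all 58 members matched); no build is stated for the array annotation, so coordinates are left out. The arrays held Landsberg erecta RNA, and how well each probe set matches that accession was not tested.

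After 64 control probe sets were set aside, 15524 of 22746 passed the filter (above 144.2, the 40th percentile, on at least 3 arrays). Log2(signal + 17.2, the 10th percentile) was fitted with 1 mean per tissue over all 11 arrays in limma 3.58.1 (lmFit, eBayes with trend; R 4.3.3), with Benjamini-Hochberg adjustment over all tested probe sets, and was tested on simulated data. The number of arrays limits precision. Values on every array are given for the 5 called members with the largest positive and negative differences per comparison and the member of each subgroup with the highest mean signal, used only to choose which genes to list and not as a comparison between probe sets; dim genes and GSTU27, UGT78D3 and others beyond that rule were chosen after their values were seen. The members and all lists were chosen with earlier results of these data known. Groups follow the array titles, because the stigma and ovary arrays carry the same descriptive text. Alternatives covered pseudocount, filter, scaling, variance trend, fold minimum, arrays fitted, replicate number, scan period, chip lot, left-out arrays and, chosen after seeing the data, an RNA quality covariate, the pathway genes without seedling 4 and the subset of members bright in every tissue.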

Additional observations from a re-analysis of the deposited data

Results flagged for a closer look

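In 2 of 46 groups of 4 arrays checked, 1 array stood far from the others; chance alone gives about 1 in 20. UGT76E11 was low on ovary 3, at 239.9 against 296.4 to 300.6 on the other ovary arrays, a gap of 0.937 of the group's range in log2 signal. UGT84A3 was low on seedling 4, at 372.4 against 599.8 to 655.1 on the other seedling arrays, a gap of 0.843 of the range.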

How the results depend on the processing

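Of the 51 called member differences, 17 lost the call under at least 1 alternative, and no called difference changed sign. Called under every alternative that tested them were 5 of 9 for stigma against ovary, 15 of 22 for stigma against seedling and 14 of 20 for ovary against seedling. The members higher in stigma than in seedling numbered 2, but 1 with a pseudocount of 64, quantile normalization, the replicate block, the RNA quality covariate, or without stigma 1, ovary 1 and seedling 4 together, and 4 without the filter; leaving out 1 array gave 1 to 2. The members higher in ovary than in seedling numbered 2, but 1 with a pseudocount of 64, chip lot as a block, within lot 1, within lot 2, or without those 3 arrays, and 5 without the filter; leaving out 1 array gave 1 to 2. A stricter filter, at 227.5, tested 25 members and called 13 for ovary against seedling, 11 of them lower in ovary, against 20 and 18. Fewer genes were tested, and 23.5% of all 13301 probe sets that passed it were called. The replicate numbers gave no clear pairing of the samples. What was correlated was each array's deviations from its tissue means over all tested probe sets, not its signals. For same-numbered stigma and ovary arrays the correlations were 0.22, -0.03 and 0.26, and for different-numbered ones between -0.29 and 0.26. With the number as a block 9, 21 and 20 members were called, against 9, 22 and 20, the loss being UGT80B1. That block called 16.2%, 26.0% and 22.9% of all tested probe sets. Equal array medians moved the median of all probe sets for stigma against ovary to 0.08, against -0.07, and the share of all calls that were higher in stigma to 52.6%, against 39.7%; the median of tested UGT genes moved to -0.03, against -0.18. UGT85A3, GSTU20, UGT78D1, UGT74B1 and GSTU18 kept their stigma against ovary calls there. No member's stigma against ovary difference depended on scan period at an adjusted p under 0.05, and 3 did at an unadjusted p under 0.05. The smallest change that can be seen in dim genes is limited by signal near 17.2.

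Sign changes occurred in 39 alternative values of 16 differences that were not called, and the cause was not tested. For stigma against ovary, the RNA quality covariate gave 0.26 for GSTU25 and 0.06 for UGT72E1, equal medians gave 0.09 for UGT72E1, 0.09 for UGT76C1 and 0.03 for UGT84A3, and quantile normalization gave 0.01 for UGT84A3. Within scan period A the values were -0.05 for UGT74D1, 0.00 for UGT76C1 and -0.30 for UGT76E11, and within period B 0.00 for UGT72E1, 0.08 for UGT73B1 and 0.10 for UGT76B1. The replicate block gave 0.05 for UGT76C1 and -0.23 for UGT76E11, and leaving out stigma 1, ovary 1 and seedling 4 together gave 0.03 for UGT72E1. For stigma against seedling, values were -0.14 for UGT71B1 within lot 1, 0.07 for UGT73B1 within lot 2, 0.13 for UGT73B1 without those 3 arrays and 0.41 for UGT76E11 with the covariate. For ovary against seedling, UGT71C4 was 0.08 with lot as a block and 0.28 within lot 1, UGT73B1 was 0.00 with equal medians, -0.02 with quantile normalization and -0.01 within lot 2, and UGT78D2 was -0.06 within lot 2. Leaving out 1 array gave -0.20 to 0.04 for UGT72E1, -0.13 to 0.01 for UGT76C1 and -0.06 to 0.13 for UGT76E11 between stigma and ovary, and -0.64 to 0.09 for UGT76E11 between stigma and seedling. Between ovary and seedling it gave -0.12 to 0.02 for UGT71C4, -0.04 to 0.31 for UGT73B1, -0.43 to 0.07 for UGT74B1 and -0.65 to 0.08 for UGT76E11.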
